A study of Mus musculus with 24 samples.

Results

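The 40 genes described here encode the glucose carriers, the enzymes of glycolysis, the lactate and pyruvate handling proteins, pyruvate dehydrogenase with its kinases, and the enzymes of the tricarboxylic acid (TCA) cycle. They were chosen by name for their place in these pathways, with earlier results of these data known. They are 40 of the 55291 genes in the count tables. With repeat families the tables hold 56326 names. All 40 had enough counts to be tested in every comparison.

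The study used preimplantation embryos whose parents, female and male, were B6D2F1 mice aged 8 weeks. Zygotes were injected with 20 µM antisense oligonucleotides (ASOs), short synthetic nucleic acids that bind a complementary RNA, which is then degraded. Those of the MERVL-KD groups target MERVL, an endogenous retrovirus transcribed in early mouse embryos, and those of the control groups have a scrambled sequence. Total RNA of 30 pooled embryos without their zona pellucida was sequenced per library. At 1.5 days post-coitum there were 2 control and 2 MERVL-KD libraries of 2-cell embryos. At 2.5 days, the age given for both later stages, there were 2 of each treatment at the 4-cell stage and 2 of each at the 8-cell stage. The stages are therefore those of the sample names, and all embryos were injected and then cultured in KSOM medium. By these labels, 4-cell and 8-cell embryos of the same age had divided at a different pace, which cannot be told apart from stage here. Whether the pools of the 2 treatments differed in pace at a stage was not tested.

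Glycolysis splits glucose into pyruvate in the cytosol, and pyruvate is either reduced to lactate or imported into mitochondria, where pyruvate dehydrogenase feeds it to the TCA cycle as acetyl-CoA. Mouse zygotes and early cleavage embryos are known to depend on pyruvate and lactate from their surroundings, and later cleavage embryos to take up and use more glucose. Many of the steps are carried out by several related enzymes (paralogues) encoded by separate genes.

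Counts summed to 33532931 and 41320446 for the control and to 35524346 and 30450413 for the MERVL-KD 2-cell libraries. For 4-cell controls the sums were 34671067 and 28167085, and for 4-cell MERVL-KD embryos 33024212 and 33089736. For 8-cell controls they were 31557127 and 33309531, and for 8-cell MERVL-KD embryos 34491197 and 41482526. The 6 groups thus had similar depth. Levels below are CPM, a count relative to its library's total after the libraries were scaled to each other by edgeR's TMM factors. They are shares of a library and hold no measure of RNA per embryo. Every library pooled the same number of embryos, and the paper states that their cleavage stage was checked under the microscope. The number of cells was thus set by the stage and was nominally equal between treatments at a stage. The levels hold no measure of RNA per cell.

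The knockdown itself was checked on its target. Counts of the MERVL internal region (MERVL-int) stood at 67690.0 and 74780.0 CPM in control 2-cell libraries and at 1324 and 1228 in MERVL-KD ones. At the 4-cell stage it stood at 20320.0 and 17410.0 CPM in control against 493 and 319.6 in MERVL-KD. At the 8-cell stage the levels were 12220.0 and 12010.0 against 277 and 295.5 CPM. Each library followed its label, with log2 fold changes of −5.72, −5.53 and −5.39 or 52.7-fold, 46.2-fold and 42.1-fold lower levels. Together the 40 members held between 0.160% and 0.207% of a library's gene counts.

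The member means over the 12 libraries ran from 1.50 CPM for Aldoc to 181 CPM for Pdha1, with a median of 23.5 CPM. Values of the form a ± b below are a log2 fold change and its standard error. Stages were compared in control embryos with edgeR's quasi-likelihood test in a fit of all 12 libraries, and a gene was called at an adjusted p under 0.05 (Benjamini-Hochberg over all 24850 names tested) and at least a 2-fold change. From the 2-cell to the 4-cell stage 8 members were called higher and 15 lower, which is 20.0% and 37.5% of the members against 20.4% and 23.7% of all names. The share called higher was near that of all names and the share called lower was above it. In MERVL-KD embryos the same step called 9 higher and 11 lower, which is 22.5% and 27.5% against 20.7% and 22.4%. The members' median log2 fold change in control embryos was −0.32, against −0.02 over all names, but it was 0.01 without Control 4-cell replicate 1, −0.14 without Control 2-cell replicate 2 and −0.46 without Control 4-cell replicate 2. In MERVL-KD embryos it was 0.18, and 0.05 or 0.10 without the first or the second MERVL-KD 4-cell library, so no direction was read from it. From the 4-cell to the 8-cell stage 1 member was called higher and 0 lower, against 0.467% and 1.08% of all names. DESeq2 gave the same counts there. By edgeR 16 members had an unadjusted p under 0.05, a number without a share of all names to read it against. Without the fold threshold 3 members were higher and 3 lower in that step, against 3.12% and 3.02% of all names. Of these 6, Hk2 was called in every fit without 1 library and each of the other 5 was lost in 3 or more of the 4. Hk2 was the 1 call left without Control 4-cell replicate 2 or Control 8-cell replicate 1, with Pdha1 beside it without Control 4-cell replicate 1 and Pfkl without Control 8-cell replicate 2. Pkm, Pdhb and Pdk1 missed the adjusted p in all 4 fits, with changes from −0.53 to −0.29 for Pkm (−0.42 with all libraries), 0.36 to 0.43 for Pdhb (0.39) and −0.78 to −0.57 for Pdk1 (−0.68). From the 2-cell to the 8-cell stage 12 members were higher and 16 lower, against 21.5% and 26.2%. Over that interval MERVL-KD embryos had 12 members higher and 15 lower, against 21.9% and 25.8%. For both treatments the shares of members called over the whole interval, 30.0% higher and 40% or 37.5% lower, lay above those of all names. All names include genes with few counts and repeat families. The shares were not matched for level, so the gap was not read as particular to the members. The medians were −0.03 in control (0.13 without Control 8-cell replicate 2) and 0.17 in MERVL-KD embryos (0.08 without MERVL-KD 8-cell replicate 1), against −0.12 and −0.16 over all names. By role, 5 of 12 TCA cycle genes were called higher and 3 lower over this interval in control embryos, 3 and 5 of 9 genes of upper glycolysis, and 1 and 3 of 5 of lower glycolysis. The roles were not tested against each other. The 3 control steps share libraries. Without Control 8-cell replicate 2, Pfkl was also called from the 4-cell to the 8-cell stage (−1.20).

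**Figure D1:**
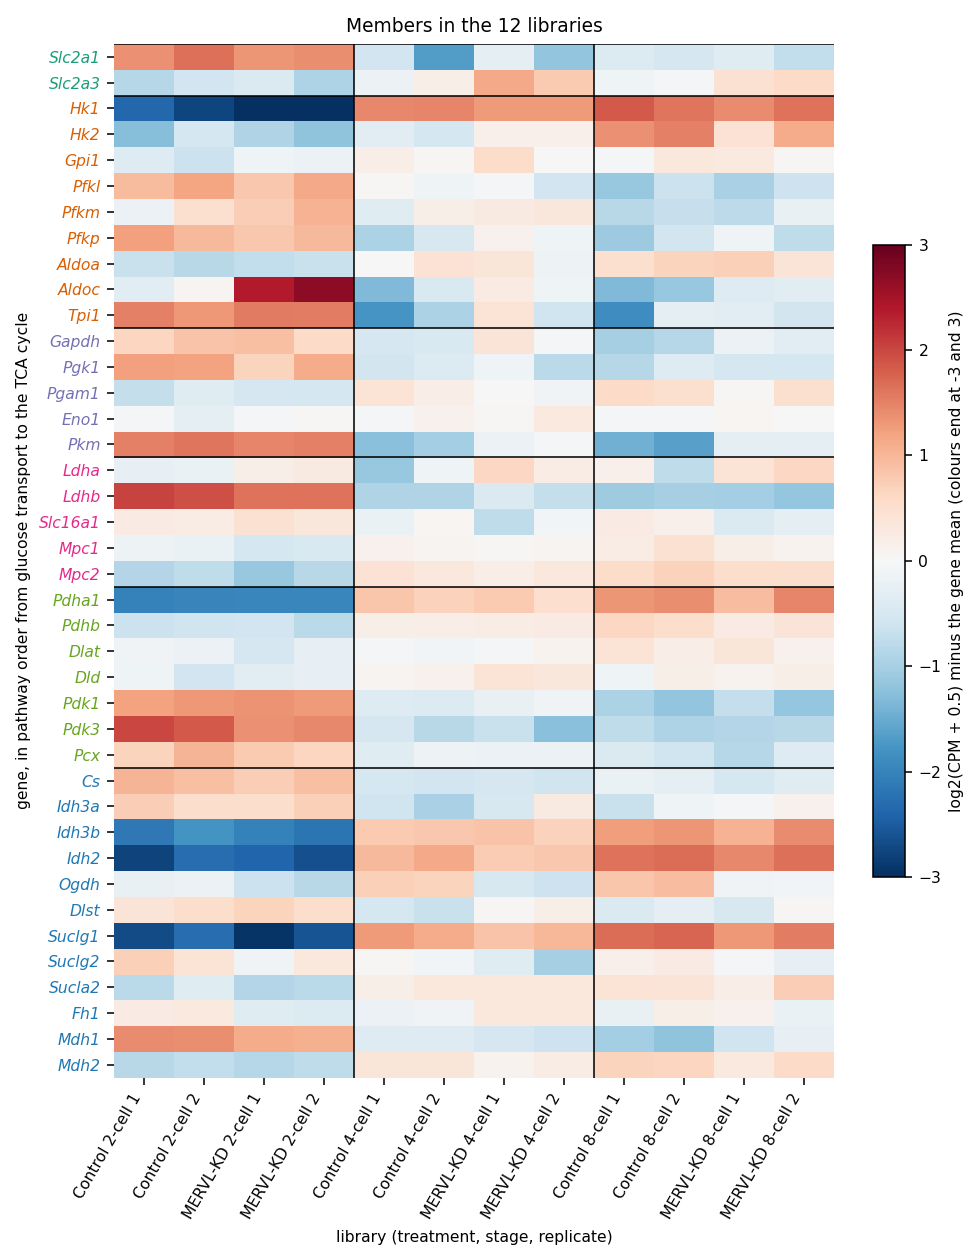
Level of the 40 members in each of the 12 libraries, as log2(CPM + 0.5) minus the gene's mean over libraries, with colours ending at 3 units on either side and genes ordered by role. The 2-cell libraries stand apart from the 4-cell and 8-cell libraries for the genes with the widest range, in both directions.

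**Figure D2:**
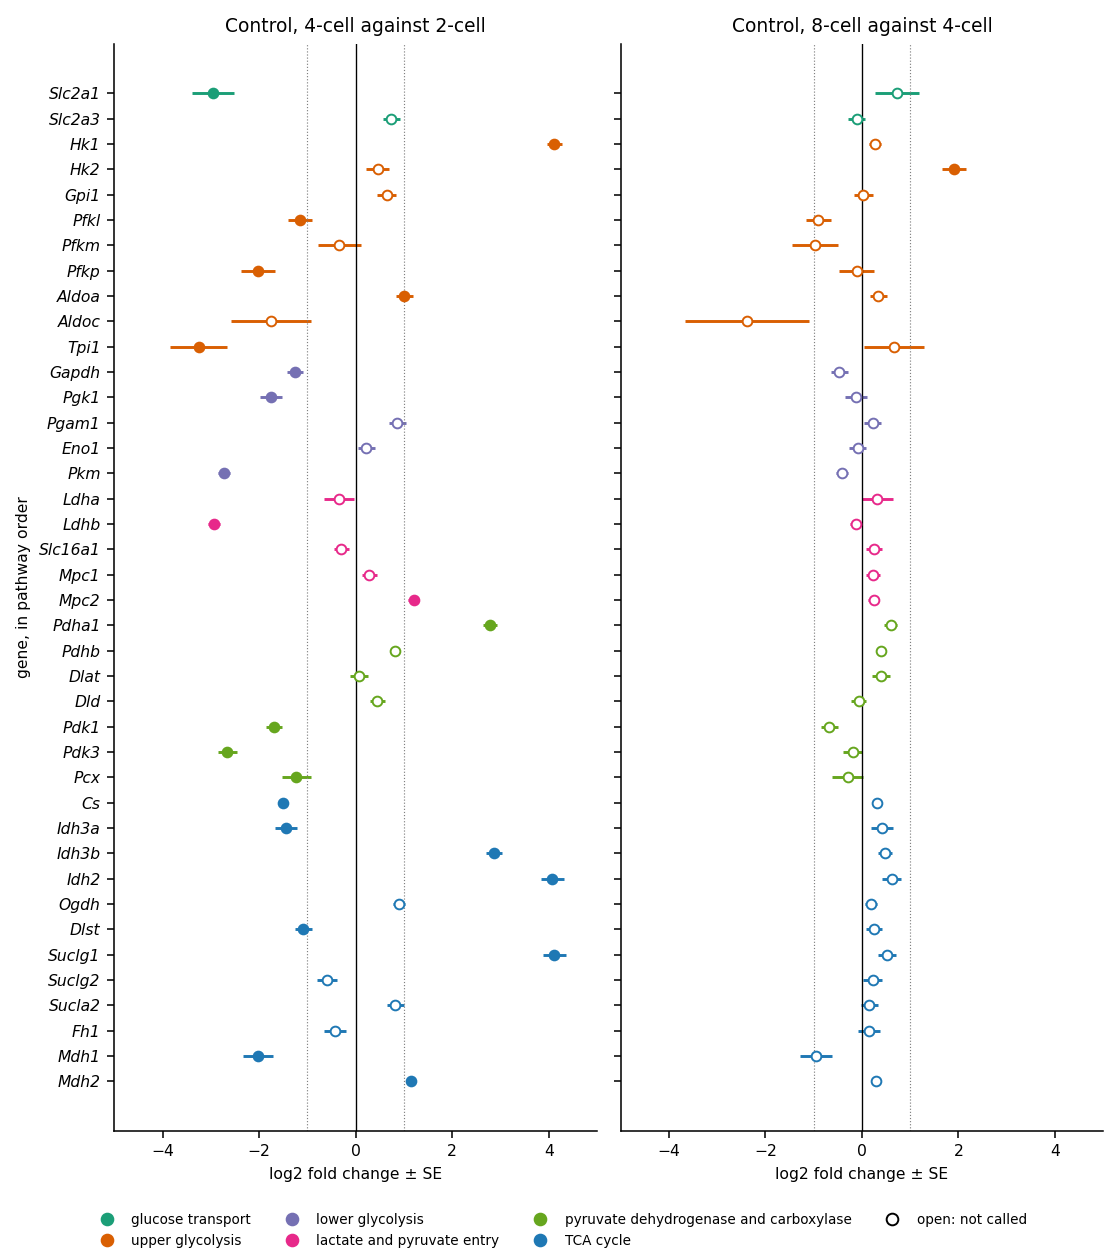
log2 fold change with its standard error for each member in control embryos, from the 2-cell to the 4-cell stage and from the 4-cell to the 8-cell stage, with open symbols for members that were not called. The first step holds 23 calls and the second holds 1, that of Hk2.

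MERVL-KD and control libraries were compared stage by stage, with the same test and call rule in a fit of the 4 libraries of a stage. At the 2-cell stage 1 member was called higher and 0 lower, against 4.26% and 2.22% of the 21347 names tested. Without the fold threshold 1 was higher and 4 were lower, against 6.74% and 7.23%, and 11 had an unadjusted p under 0.05. At the 4-cell stage 1 member was higher and 1 lower, against 2.58% and 1.87% of 20505 names, and without the fold threshold 4 and 1, against 4.83% and 5.75%. At the 8-cell stage 1 member was higher and 0 lower, against 0.632% and 1.07% of 19153 names, and without the fold threshold 3 and 2, against 1.62% and 3.51%. DESeq2 also called 0 members lower at the 2-cell and 8-cell stages. Its 4-cell calls numbered 4 (3 higher, 1 lower), with Tpi1 and Ldha added. The members with an unadjusted p under 0.05 by edgeR numbered 11, 14 and 9 at the 3 stages in order. The shares of all names at that threshold are not given, so these numbers were not read as a result about the members. A count of 1 is 2.50% of the members, and counts this small were not read as differing from the shares of all names. The members' median log2 fold changes were −0.00, 0.09 and −0.01 at the 3 stages, against 0.02, 0.01 and 0.01 over all names.

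Leaving out 1 library changed the counts of each knockdown comparison. At the 2-cell stage 3 members were called without Control 2-cell replicate 2, with Hk1 (−1.12) and Pfkm (1.35) added, and 2 without MERVL-KD 2-cell replicate 1, with Pfkm (1.05) added. At the 4-cell stage 6 were called without Control 4-cell replicate 2. The added members were Slc2a3 (1.15), Tpi1 (2.47), Ldha (1.66) and Aldoc, which had 0 counts in the remaining control (adjusted p = 0.00465). Without MERVL-KD 4-cell replicate 1 the added members were Idh3a (1.07) and Suclg2 (−1.02). Without MERVL-KD 4-cell replicate 2 they were Slc2a3 (1.14) and Tpi1 (2.19), and Pkm was lost (0.99), as it was without Control 4-cell replicate 1 (0.94). At the 8-cell stage 3 were called without Control 8-cell replicate 1, with Ldha (1.36) and Ogdh (−1.02) added, and 2 without MERVL-KD 8-cell replicate 2, with Hk2 (−1.01) added. Aldoc at the 2-cell, Ogdh at the 4-cell and Pkm at the 8-cell stage were called in every such fit. Without the fold threshold the 5 calls at the 2-cell stage became 1 without Control 2-cell replicate 1, with Hk1, Ldhb, Pdk3 and Ogdh lost, and those at the 4-cell stage ranged from 5 to 7. At the 8-cell stage the 5 calls became 3 without Control 8-cell replicate 1, with Slc2a3, Gapdh and Slc16a1 lost and Ldha gained. They became 9 without MERVL-KD 8-cell replicate 2, where 6 were lower in place of 2. The added ones were Hk2, Pdha1 (−0.44, adjusted p = 0.000116), Pdhb (−0.33) and Mdh2 (−0.34).

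**Figure D3:**
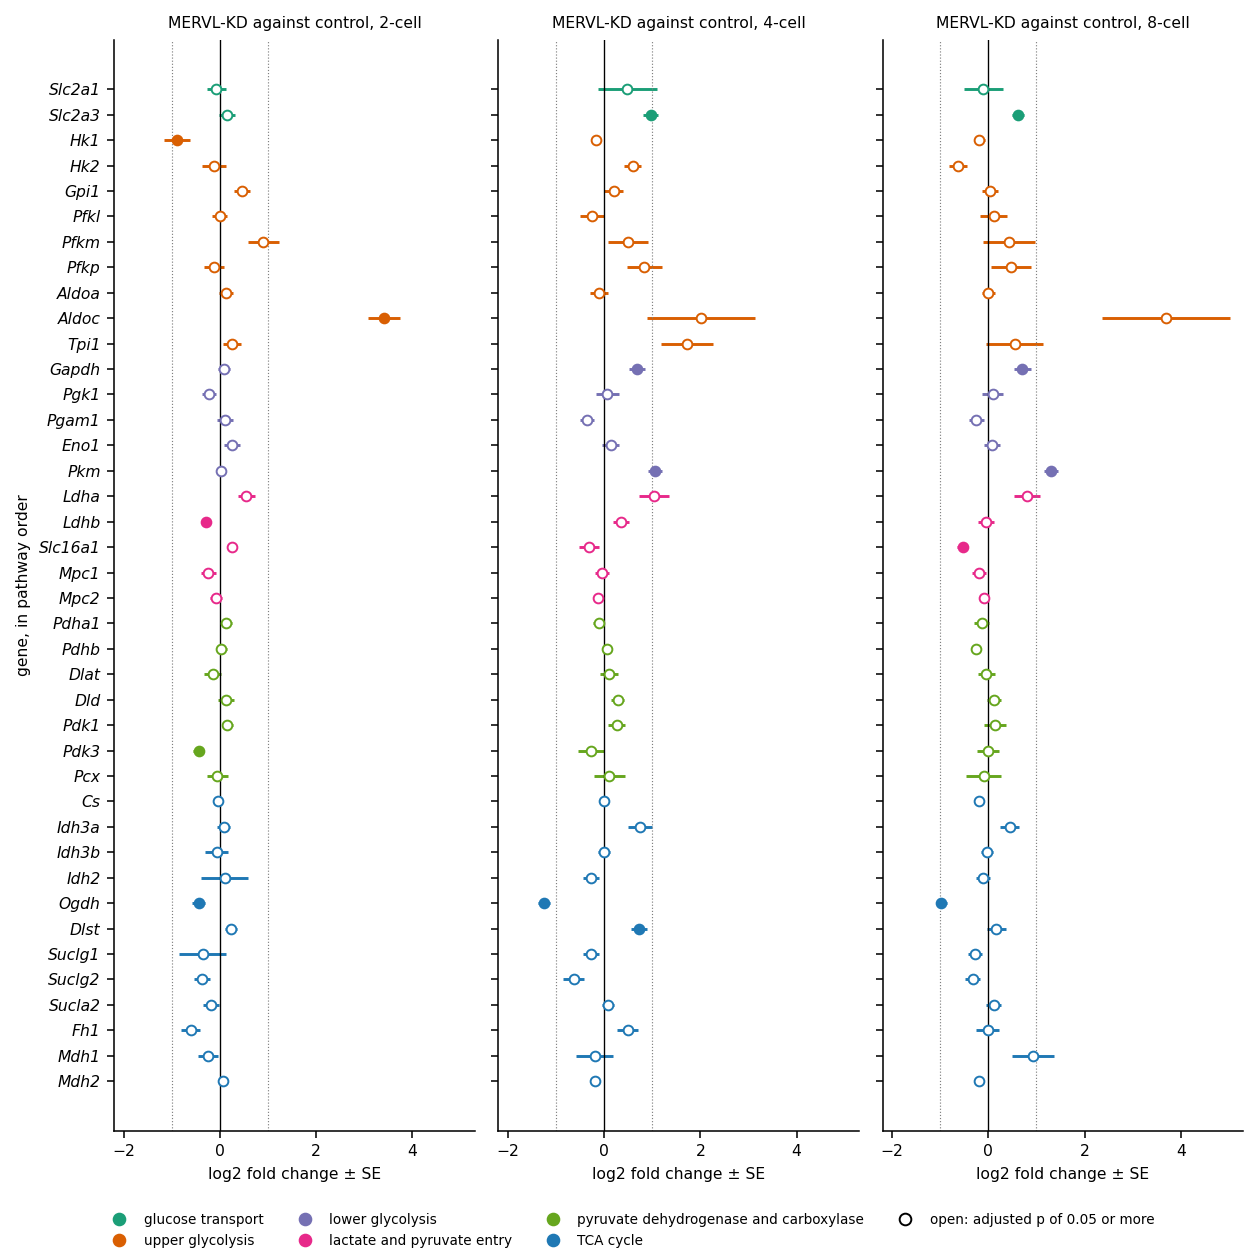
log2 fold change of MERVL-KD against control with its standard error for each member at the 2-cell, 4-cell and 8-cell stages, with filled symbols for an adjusted p under 0.05. Aldoc at the 2-cell stage lies far to the higher side, Pkm lies higher and Ogdh lower at the 4-cell and 8-cell stages.

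Whether the knockdown effect differed between stages was asked with interaction contrasts in the fit of 12 libraries, called at an adjusted p under 0.05. Between the 4-cell and the 2-cell stage the difference was positive for 5 members (Slc2a3, Hk1, Pkm, Ldhb and Fh1) and negative for 1 (Ogdh), against 2.47% and 1.65% of all names. Between the 8-cell and the 2-cell stage it was positive for 2 members (Pkm and Hk1) and negative for 0 by edgeR, against 2.35% and 1.63%, with 8 members at an unadjusted p under 0.05 and 1 negative call by DESeq2, Slc16a1. Between the 8-cell and the 4-cell stage edgeR called 0 members in either direction, against 0.302% and 0.338% of all names, with 4 at an unadjusted p under 0.05 and 1 call by DESeq2, Hk2. The numbers at an unadjusted p have no share of all names beside them and were not read as a result. The 5 members with a positive difference at the 4-cell stage are 12.5% of the members, but in fits without 1 library 1 to 3 were positive, so this share was not read as above that of all names. Some markers were also positive in this interaction, but the median of the 10 markers of the 8-cell stage and morula was −0.27. Of the 9 markers of the 2-cell stage tested, 0 were called in either direction with all libraries. Of 12 maternal transcripts 3 were positive, Zp2 (0.87 ± 0.19), Gdf9 (0.76 ± 0.19) and Zar1 (0.82 ± 0.22), and each missed the adjusted p in 3 or more of these fits, all 3 without Control 2-cell replicate 2, MERVL-KD 2-cell replicate 1 or MERVL-KD 4-cell replicate 2. Of 10 markers of the 8-cell stage and morula 2 were positive in every fit, Krt8 (1.89 ± 0.33) and Atp1b1 (1.58 ± 0.28). In 1 fit each Bmp15 and Zscan4c were also positive and Tdgf1 and Fgfr2 negative. The markers' part in the members' differences was not tested. Pkm kept its call between the 4-cell and 2-cell stages with each of the 8 libraries of these stages left out. The others did not: Fh1 fell short without any of the 8 libraries, with differences of 1.06 to 1.22. Slc2a3 fell short, at 0.67 to 0.75, without Control 2-cell replicate 2, MERVL-KD 2-cell replicate 2, Control 4-cell replicate 1 or MERVL-KD 4-cell replicate 1. Ogdh fell short, at −0.74 to −0.63, without Control 2-cell replicate 1, MERVL-KD 2-cell replicate 1 or either control 4-cell library. Hk1 and Ldhb each fell short without 6 of the 8. For Hk1 these were all but Control 2-cell replicate 2 and MERVL-KD 4-cell replicate 1 (0.58 to 0.82), and for Ldhb all but Control 2-cell replicate 2 and MERVL-KD 4-cell replicate 2 (0.57 to 0.72). Members without a call in the full data passed in 3 of these fits. They were Idh3a at the 4-cell against the 2-cell stage without MERVL-KD 4-cell replicate 1 (1.08), Slc16a1 without MERVL-KD 4-cell replicate 2 (−0.98), and Hk2 at the 8-cell against the 4-cell stage without MERVL-KD 8-cell replicate 2 (−1.58).

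Of the 5 members with the largest rise and the 5 with the largest fall from control 2-cell to control 8-cell embryos, the RefSeq sequence before the start is shown for 4 that rose and 2 that fell, as examples of either direction. Each of these 6 has 1 start in the RefSeq table, and they were chosen after their values were seen. The rising ones are Idh2 (chr7:80115351-80115600, minus strand), Suclg1 (chr6:73248255-73248504, plus strand), Pdha1 (chrX:160138431-160138680, minus strand) and Idh3b (chr2:130284452-130284701, minus strand). The falling ones are Ldhb (chr6:142507958-142508207, minus strand) and Mdh1 (chr11:21571935-21572184, minus strand). Each run is the 250 bases before the RefSeq start in GRCm38.p6, written 5′ to 3′ on the gene's strand, and RefSeq starts can differ from those of the gene models that were counted. Capitals mark matches on either strand to GGGCGG (the GC box), CCAAT (the CAAT box), CCGGAAG (an ETS core) and ACGTG (the core of HIF response elements, which also lies within CACGTG E-boxes).
Idh2: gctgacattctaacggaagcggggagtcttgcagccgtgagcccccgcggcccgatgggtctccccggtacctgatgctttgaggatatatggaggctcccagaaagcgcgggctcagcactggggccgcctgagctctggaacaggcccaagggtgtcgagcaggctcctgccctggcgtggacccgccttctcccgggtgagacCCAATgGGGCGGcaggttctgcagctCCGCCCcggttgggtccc
Suclg1: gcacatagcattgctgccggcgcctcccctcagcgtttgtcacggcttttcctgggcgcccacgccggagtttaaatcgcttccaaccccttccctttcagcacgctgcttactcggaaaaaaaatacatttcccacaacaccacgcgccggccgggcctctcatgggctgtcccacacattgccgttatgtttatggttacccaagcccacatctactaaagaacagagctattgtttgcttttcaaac
Pdha1: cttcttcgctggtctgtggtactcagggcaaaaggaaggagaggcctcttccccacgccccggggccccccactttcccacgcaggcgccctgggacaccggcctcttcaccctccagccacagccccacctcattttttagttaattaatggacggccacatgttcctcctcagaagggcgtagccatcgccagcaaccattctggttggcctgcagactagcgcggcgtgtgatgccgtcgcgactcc
Idh3b: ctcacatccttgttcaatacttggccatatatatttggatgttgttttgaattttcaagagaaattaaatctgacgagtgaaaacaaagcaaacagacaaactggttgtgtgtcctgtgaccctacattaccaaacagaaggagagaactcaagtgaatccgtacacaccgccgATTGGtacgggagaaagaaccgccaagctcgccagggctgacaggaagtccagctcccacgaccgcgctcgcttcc
Ldhb: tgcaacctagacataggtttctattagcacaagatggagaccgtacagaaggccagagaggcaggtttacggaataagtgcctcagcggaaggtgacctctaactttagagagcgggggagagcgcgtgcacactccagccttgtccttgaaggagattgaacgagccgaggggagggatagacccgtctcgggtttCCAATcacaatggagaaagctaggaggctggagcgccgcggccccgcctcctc
Mdh1: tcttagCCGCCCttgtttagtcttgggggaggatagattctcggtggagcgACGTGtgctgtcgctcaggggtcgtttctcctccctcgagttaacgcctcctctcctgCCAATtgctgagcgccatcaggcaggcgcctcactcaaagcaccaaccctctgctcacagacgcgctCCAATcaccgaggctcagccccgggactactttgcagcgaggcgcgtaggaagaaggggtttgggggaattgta
Idh2 held 2 matches to GGGCGG and 1 to CCAAT, and Mdh1 held 1 to GGGCGG, 2 to CCAAT and 1 to ACGTG. Idh3b and Ldhb held 1 match to CCAAT each, and the windows of Suclg1 and Pdha1 held none of the 4 motifs. The table listed 57 promoters of 38 of the 40 members, without Slc2a3 and Idh3a. GGGCGG was found in 32 of them (56.1%, against 32.7% of all 32851 promoters), CCAAT in 25 (43.9% against 33.9%), ACGTG in 21 (36.8% against 16.6%) and CCGGAAG in 2 (3.51% against 6.91%). Genes with several listed starts count once per start, and a match is a description of these letters only.

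Glucose transport was represented by Slc2a1 and Slc2a3, which encode the glucose carriers GLUT1 and GLUT3. Slc2a1 stood in control libraries at 8.23 and 10.1 CPM at the 2-cell, 1.76 and 0.556 at the 4-cell and 2.03 and 1.88 at the 8-cell stage. In MERVL-KD libraries it stood at 7.94 and 8.43 at the 2-cell, 2.25 and 0.993 at the 4-cell and 2.11 and 1.51 CPM at the 8-cell stage. The 2-cell libraries of both treatments were high and all later ones low, with no overlap between the 2-cell and 4-cell control groups, and the fall was 7.74-fold (log2 fold change −2.95 ± 0.44, adjusted p = 7.20e-06), or 16.4-fold without Control 4-cell replicate 1. Slc2a3 stood in control libraries at 18.7 and 22.8 CPM at the 2-cell, 30.5 and 39.0 at the 4-cell and 31.3 and 33.1 at the 8-cell stage. Its MERVL-KD levels were 25.2 and 17.9 at the 2-cell, 76.2 and 59.2 at the 4-cell and 47.4 and 51.1 CPM at the 8-cell stage. The treatments overlapped in 2-cell embryos, while both MERVL-KD libraries lay above both controls in 4-cell and in 8-cell embryos. At the 4-cell stage the difference was 0.97 ± 0.16 (adjusted p = 0.00261) and at the 8-cell stage 0.62 ± 0.12 (adjusted p = 0.0156), short of 2-fold at both. Slc2a3 passed the 2-fold mark at the 4-cell stage without Control 4-cell replicate 2 (1.15) or MERVL-KD 4-cell replicate 2 (1.14). The 8-cell difference fell short of the adjusted p without Control 8-cell replicate 1 (0.59). The interaction between the 4-cell and 2-cell stages was 0.91 ± 0.24 (adjusted p = 0.0383). Per length, in RPKM (CPM per kilobase of exon), Slc2a3 took 52.4 and 52.3% at the 2-cell, 89.4 and 97.1% at the 4-cell and 88.2 and 89.5% at the 8-cell stage of the summed control level of the pair. The length used here and below is that of all annotated exons of a gene. It can differ from that of the transcripts present, and shares and orders between paralogues depend on it.

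Upper glycolysis opens with the hexokinases, which phosphorylate glucose. Hk1 stood in control libraries at 6.57 and 4.84 CPM at the 2-cell, 97.3 and 99.9 at the 4-cell and 128 and 109 at the 8-cell stage. The MERVL-KD libraries gave 2.81 and 3.00 at the 2-cell, 86.5 and 87.3 at the 4-cell and 95.6 and 111 CPM at the 8-cell stage. The 2-cell libraries were low and all later ones far above them, a 17.3-fold rise from the 2-cell to the 4-cell stage in control embryos (log2 fold change 4.12 ± 0.15, adjusted p = 4.17e-15). Both MERVL-KD 2-cell libraries lay below both controls, with a difference of −0.89 ± 0.27 (adjusted p = 0.0386) that fell short with a replicate block. Without Control 2-cell replicate 1 that difference was −0.66 and without MERVL-KD 2-cell replicate 1 it was −0.86, neither past an adjusted p of 0.05, and without Control 2-cell replicate 2 (−1.12) it passed 2-fold. The knockdown effect differed from that at the 2-cell stage by 0.79 ± 0.21 (adjusted p = 0.0331) at the 4-cell and by 0.77 ± 0.21 (adjusted p = 0.0376) at the 8-cell stage. The latter fell short without Control 2-cell replicate 1, either MERVL-KD 2-cell library, either control 8-cell library or MERVL-KD 8-cell replicate 2, at 0.56 to 0.82. Hk2, the second hexokinase, stood in control libraries at 6.12 and 10.6 CPM at the 2-cell, 12.3 and 10.7 at the 4-cell and 41.1 and 45.2 at the 8-cell stage. MERVL-KD embryos had levels of 8.03 and 6.45 at the 2-cell, 17.2 and 17.3 at the 4-cell and 21.2 and 34.0 CPM at the 8-cell stage. It rose late, with the 8-cell control libraries above all others. In control embryos it was the member called from the 4-cell to the 8-cell stage (1.91 ± 0.24, adjusted p = 0.000243, 3.75-fold), and in MERVL-KD embryos 0 members were. Both MERVL-KD 8-cell libraries lay below both controls (−0.63 ± 0.20, adjusted p = 0.0940), and the change of the knockdown effect from the 4-cell to the 8-cell stage, −1.23 ± 0.33 (adjusted p = 0.103), did not pass with edgeR and passed with DESeq2. Without MERVL-KD 8-cell replicate 2, edgeR called both the 8-cell difference (−1.01) and that change (−1.58). Per length, Hk1 took 42.9 and 24.2% at the 2-cell, 84.7 and 86.8% at the 4-cell and 68.5 and 62.9% at the 8-cell stage of the summed hexokinase level of the pair in control embryos. The order of the pair per length therefore turned between the 2-cell and the 4-cell stage, and Hk2 regained part of the share at the 8-cell stage. In CPM, Hk1 already lay above Hk2 in Control 2-cell replicate 1 (6.57 against 6.12).

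Gpi1, which encodes the isomerase of the next step, rose less than 2-fold from the 2-cell to the 4-cell stage in control embryos (0.64 ± 0.20, adjusted p = 0.00843). That rise fell short without Control 2-cell replicate 2 (0.51) or Control 4-cell replicate 1 (0.55). Phosphofructokinase, the committing step, is encoded by Pfkl, Pfkm and Pfkp. Pfkl stood in control libraries at 18.3 and 21.9 CPM at the 2-cell, 9.62 and 8.48 at the 4-cell and 3.95 and 5.73 at the 8-cell stage. Under MERVL-KD the levels were 16.8 and 21.0 at the 2-cell, 9.04 and 6.08 at the 4-cell and 4.47 and 5.90 CPM at the 8-cell stage. Each stage lay below the one before it in control embryos without overlap, and the fall from the 2-cell to the 8-cell stage was 4.15-fold (−2.05 ± 0.25, adjusted p = 3.86e-07). Pfkp stood in control libraries at 9.41 and 7.79 CPM at the 2-cell, 1.70 and 2.54 at the 4-cell and 1.49 and 2.41 at the 8-cell stage. After knockdown it stood at 6.94 and 7.89 at the 2-cell, 4.12 and 3.39 at the 4-cell and 3.38 and 2.00 CPM at the 8-cell stage. It fell 4.07-fold in the first step (−2.02 ± 0.34, adjusted p = 3.32e-05) and the 4-cell and 8-cell control levels overlapped. Exons of Pfkp overlap those of Pitrm1 on the opposite strand, whose highest count over the libraries was 738, and the lowest of Pfkp was 41. Pfkm stood in control libraries at 1.56 and 2.75 CPM at the 2-cell, 1.30 and 2.12 at the 4-cell and 0.798 and 0.938 at the 8-cell stage. In MERVL-KD libraries it stood at 3.38 and 4.27 at the 2-cell, 2.31 and 2.45 at the 4-cell and 0.837 and 1.49 CPM at the 8-cell stage. It was low throughout, and its call from the 2-cell to the 8-cell stage (−1.31 ± 0.47, adjusted p = 0.0210) was lost without Control 2-cell replicate 2 (−0.84) or either control 8-cell library (−1.11 and −1.38). The exons of Pfkm overlap those of Senp1 on the opposite strand. Over the libraries the highest count of Senp1 was 9019 and the lowest of Pfkm 22. Per length, Pfkl took 70.1 and 70.0% at the 2-cell, 73.6 and 60.7% at the 4-cell and 62.9 and 65.1% at the 8-cell stage of the summed level of the 3 genes in control embryos and remained the highest of them.

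Aldolase, which splits the 6-carbon sugar, is encoded by Aldoa and Aldoc. Aldoa stood in control libraries at 25.5 and 22.8 CPM at the 2-cell, 41.2 and 55.9 at the 4-cell and 57.9 and 65.3 at the 8-cell stage. Its MERVL-KD levels were 24.4 and 25.4 at the 2-cell, 52.6 and 36.8 at the 4-cell and 68.1 and 54.0 CPM at the 8-cell stage. The 2-cell libraries were lowest in both treatments and the rise to the 8-cell stage in control embryos was 2.55-fold (1.35 ± 0.18, adjusted p = 1.27e-06). Its call in the first step, at 1.01, lay at the 2-fold mark and was lost without Control 2-cell replicate 2 (0.93) or Control 4-cell replicate 2 (0.76). Aldoc, on chromosome 11 from 78322968 to 78327781 (plus strand, GRCm38), stood in control libraries at 0.510 and 0.826 CPM at the 2-cell, 0 and 0.417 at the 4-cell and 0 and 0.0670 at the 8-cell stage. The MERVL-KD libraries gave 5.99 and 7.61 at the 2-cell, 0.989 and 0.643 at the 4-cell and 0.462 and 0.513 CPM at the 8-cell stage. Both MERVL-KD 2-cell libraries lay far above every other library, with 252 and 269 counts against 16 and 30 in control. The 2-cell difference was 10.6-fold (3.41 ± 0.33, adjusted p = 4.98e-06), the only 2-fold member call at that stage by edgeR and by DESeq2. At the later stages the MERVL-KD libraries held 16 to 36 counts and the controls 0 to 12, and neither difference passed the test with all libraries. Without Control 4-cell replicate 2 the remaining control held 0 counts and the 4-cell difference was called (adjusted p = 0.00465), as was the fall in the first control step (adjusted p = 0.000310). The control 8-cell libraries held 0 and 2 counts, so the fall from the control 2-cell stage is a ratio of 19.9 with an exact 95% interval of 5.21 to 170, which covers counting error only. Since both mates of a pair appear to be counted, halved counts are nearer to separate events, and with these the interval is 3.24 to 821. The spread between libraries adds to this, since edgeR's fall was 9.01-fold without Control 8-cell replicate 1 and 181-fold without Control 8-cell replicate 2, where the remaining library held 0 counts. Of the summed aldolase level per length, Aldoc took 2.22 and 3.96% at the 2-cell stage of controls, against 21.9 and 25.4% with MERVL-KD. Tpi1, which encodes triosephosphate isomerase, stood in control libraries at 9.88 and 8.53 CPM at the 2-cell, 0.568 and 1.39 at the 4-cell and 0.508 and 2.51 at the 8-cell stage. It fell 9.54-fold from the 2-cell to the 4-cell stage (−3.25 ± 0.59, adjusted p = 0.000300), or 16.2-fold without Control 4-cell replicate 2 and 6.63-fold without Control 4-cell replicate 1, which held 40 and 20 counts. Its exons overlap those of Spsb2 on the opposite strand, with at most 34 counts in a library, and Tpi1 held at least 14.

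Lower glycolysis begins with Gapdh, whose product oxidises glyceraldehyde 3-phosphate. Gapdh stood in control libraries at 39.7 and 46.0 CPM at the 2-cell, 17.7 and 18.3 at the 4-cell and 12.3 and 13.7 at the 8-cell stage. MERVL-KD embryos had levels of 47.2 and 38.1 at the 2-cell, 33.1 and 24.3 at the 4-cell and 22.2 and 20.1 CPM at the 8-cell stage. The treatments overlapped at the 2-cell stage, and from the 4-cell stage on both MERVL-KD libraries lay above both controls. The fall in control embryos was 3.30-fold from the 2-cell to the 8-cell stage (−1.72 ± 0.17, adjusted p = 1.79e-08). The knockdown differences were 0.68 ± 0.18 (adjusted p = 0.0303) at the 4-cell and 0.71 ± 0.17 (adjusted p = 0.0332) at the 8-cell stage. The first fell short without Control 4-cell replicate 1 (0.66) or MERVL-KD 4-cell replicate 1 (0.43). The second fell short without either control 8-cell library (0.64 and 0.79) or MERVL-KD 8-cell replicate 1 (0.63). Neither passed an interaction test against the 2-cell stage (adjusted p = 0.115 and 0.108). Iffo1, whose exons overlap those of Gapdh on the opposite strand, had at most 380 counts in a library, and Gapdh at least 340. Pgk1 and Pgam1, which encode the next enzymes, moved apart in control embryos, with −1.88 ± 0.23 (adjusted p = 2.78e-07) and 1.09 ± 0.18 (adjusted p = 1.86e-05) from the 2-cell to the 8-cell stage. The Pgam1 call was lost without Control 2-cell replicate 1 (0.89). Eno1, which encodes enolase, differed by 0.13 over the same interval and was not called.

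Pkm, on chromosome 9 from 59656368 to 59679375 (plus strand, GRCm38), encodes the pyruvate kinase that yields pyruvate at the end of glycolysis. It stood in control libraries at 139 and 149 CPM at the 2-cell, 20.0 and 23.7 at the 4-cell and 17.4 and 15.3 at the 8-cell stage. Under MERVL-KD the levels were 134 and 139 at the 2-cell, 43.1 and 47.2 at the 4-cell and 39.7 and 40.3 CPM at the 8-cell stage. The treatments overlapped at the 2-cell stage, both fell at the 4-cell stage, and from then on every MERVL-KD library lay above every control. The fall in control embryos from the 2-cell to the 4-cell stage was 6.59-fold (−2.72 ± 0.12, adjusted p = 8.70e-14). MERVL-KD embryos differed from control by 0.01 ± 0.09 (adjusted p = 0.960) at the 2-cell, 1.06 ± 0.15 (adjusted p = 0.000868) at the 4-cell and 1.30 ± 0.14 (adjusted p = 0.000273) at the 8-cell stage. The 4-cell difference, 2.08-fold, slipped under 2-fold without Control 4-cell replicate 1 (0.94) or MERVL-KD 4-cell replicate 2 (0.99). The 8-cell difference, 2.46-fold, was called with each library left out. The interaction against the 2-cell stage was 1.12 ± 0.17 (adjusted p = 0.000438) at the 4-cell and 1.37 ± 0.17 (adjusted p = 6.04e-05) at the 8-cell stage. The exons of Pkm overlap those of Gm49759 on the same strand, which reached at most 121 counts where Pkm never fell under 457. Total Pkm counts do not separate its spliced M1 and M2 forms.

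**Figure D4:**
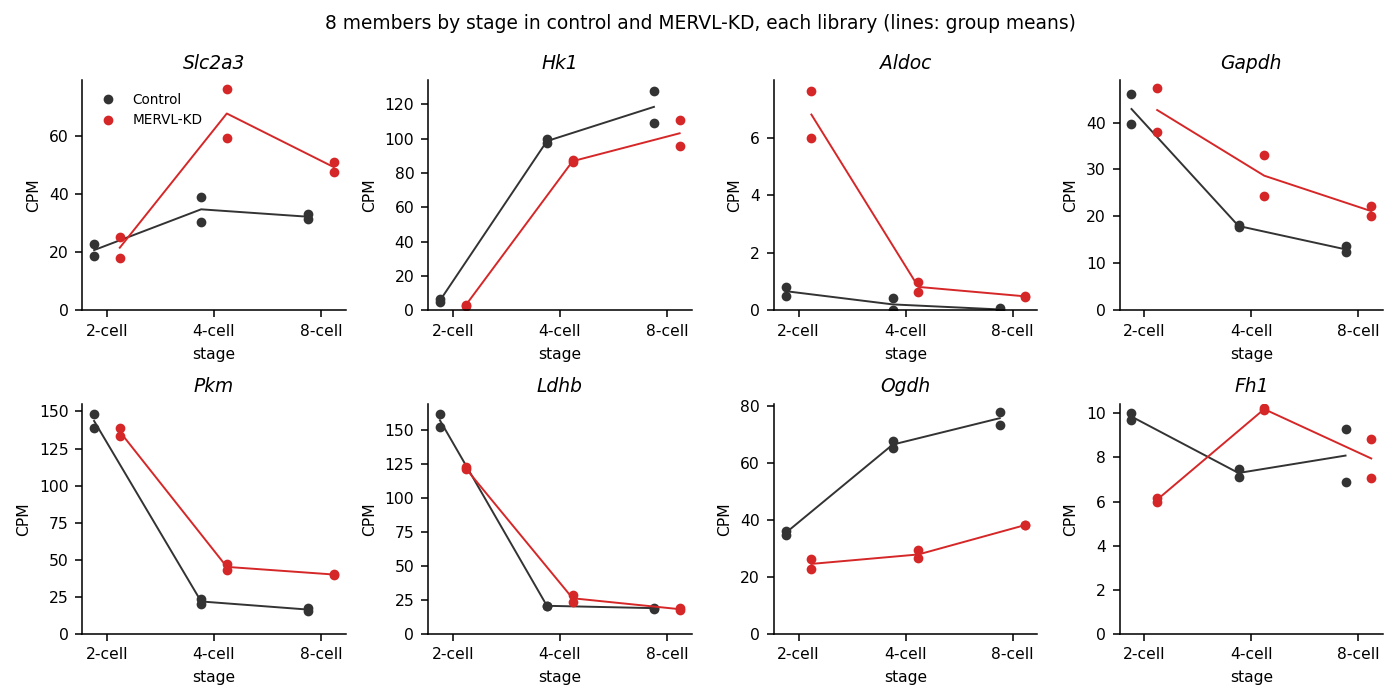
Level in CPM of 8 members in each library at the 2-cell, 4-cell and 8-cell stages, for control and MERVL-KD, with lines through the group means of 2 libraries. Pkm and Slc2a3 lie higher and Ogdh lower in MERVL-KD libraries at the 4-cell and 8-cell stages, and Aldoc lies higher at the 2-cell stage.

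Lactate dehydrogenase interconverts pyruvate and lactate, and its subunits are encoded by Ldha and Ldhb. Ldhb stood in control libraries at 162 and 152 CPM at the 2-cell, 20.6 and 20.6 at the 4-cell and 18.4 and 19.3 at the 8-cell stage. After knockdown it stood at 121 and 122 at the 2-cell, 28.6 and 23.6 at the 4-cell and 18.9 and 17.3 CPM at the 8-cell stage. The 2-cell libraries of both treatments were high and all later ones low, a 7.62-fold fall in control embryos (−2.93 ± 0.13, adjusted p = 3.88e-14). At the 2-cell stage both MERVL-KD libraries lay below both controls, a difference of −0.28 ± 0.09 (adjusted p = 0.0456). With library size alone as the scale that difference was 0.00, while the median of all names stood at 0.31, so that Ldhb lay −0.31 from that median against −0.30 with TMM. It also fell short with a replicate block, and without Control 2-cell replicate 1 (−0.24) or either MERVL-KD 2-cell library (−0.29 and −0.30). The interaction of the 4-cell against the 2-cell stage was 0.71 ± 0.17 (adjusted p = 0.0186). Ldha stood in control libraries at 9.15 and 9.47 CPM at the 2-cell, 4.71 and 10.0 at the 4-cell and 12.1 and 6.23 at the 8-cell stage. In MERVL-KD libraries it stood at 12.5 and 13.2 at the 2-cell, 17.0 and 12.8 at the 4-cell and 14.7 and 17.0 CPM at the 8-cell stage. Control and MERVL-KD libraries did not overlap at any stage and MERVL-KD was higher at each, but with edgeR no difference passed (adjusted p = 0.0531, 0.0672 and 0.136). DESeq2 called Ldha and Tpi1 higher at the 4-cell stage. By edgeR, Ldha was called at the 4-cell stage without Control 4-cell replicate 2 (1.66) and at the 8-cell stage without Control 8-cell replicate 1 (1.36). Per length, Ldhb took 97.4 and 97.1% at the 2-cell, 90.2 and 81.2% at the 4-cell and 76.2 and 86.7% at the 8-cell stage of the summed level of the pair in control embryos, so the Ldha part grew while both stayed in the same order.

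Pyruvate enters mitochondria through the carrier formed by the products of Mpc1 and Mpc2. Mpc1 stood in control libraries at 21.3 and 20.6 CPM at the 2-cell, 26.0 and 25.1 at the 4-cell and 27.6 and 32.4 at the 8-cell stage. Its MERVL-KD levels were 16.2 and 17.1 at the 2-cell, 24.1 and 24.9 at the 4-cell and 26.7 and 25.4 CPM at the 8-cell stage. Its changes between control stages were under 2-fold. Mpc2 stood in control libraries at 39.1 and 42.5 CPM at the 2-cell, 98.0 and 89.8 at the 4-cell and 106 and 116 at the 8-cell stage. The MERVL-KD libraries gave 32.6 and 40.04 at the 2-cell, 82.3 and 89.6 at the 4-cell and 104 and 104 CPM at the 8-cell stage. It rose 2.30-fold in the first control step (1.20 ± 0.12, adjusted p = 1.58e-08), with the 2-cell libraries below all later ones. Per length, Mpc2 took 34.3 and 37.0% at the 2-cell, 51.7 and 50.4% at the 4-cell and 52.2 and 50.4% at the 8-cell stage of the pair in control embryos. On this scale the 2 genes were near equal from the 4-cell stage on, with 2082 bases of annotated exon for Mpc1 and 7344 for Mpc2. In CPM, Mpc2 lay above Mpc1 in every library. Slc16a1, which encodes the lactate and pyruvate carrier MCT1, stood at 74.6 and 73.1 CPM in control 2-cell libraries. Both MERVL-KD 2-cell libraries lay above these, at 86.3 and 79.1, without a call. The treatments overlapped at the 4-cell stage, at 54.96 and 65.59 CPM in control and 36.85 and 59.43 in MERVL-KD libraries. At the 8-cell stage Slc16a1 stood at 74.2 and 69.8 CPM in control and 46.4 and 52.2 in MERVL-KD libraries. Both MERVL-KD libraries were lower there (−0.54 ± 0.11, adjusted p = 0.0198), and the difference fell short without Control 8-cell replicate 1 (−0.49).

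Pdha1, on the X chromosome, encodes the catalytic subunit of pyruvate dehydrogenase. It stood in control libraries at 30.5 and 31.2 CPM at the 2-cell, 224 and 202 at the 4-cell and 316 and 329.8 at the 8-cell stage. MERVL-KD embryos had levels of 31.9 and 31.9 at the 2-cell, 216 and 177 at the 4-cell and 237 and 346 CPM at the 8-cell stage. Each control stage lay above the one before it, a 6.92-fold rise in the first step (2.79 ± 0.15, adjusted p = 5.80e-12) and 1.51-fold in the second (0.60 ± 0.14, adjusted p = 0.0134). The second step fell short of the adjusted p without Control 4-cell replicate 2 (0.53) or either control 8-cell library (0.65 and 0.56). Pdhb, the partner subunit, rose 2.32-fold from the 2-cell to the 8-cell stage (1.21 ± 0.11, adjusted p = 2.95e-09). Dlat and Dld, which encode the other components of the complex, changed by 0.47 and 0.38 on the log2 scale over the same interval and were not called. In mean RPKM of control embryos, Pdha1 went from 8.25 through 57.1 to 86.5, Pdhb from 14.0 through 24.8 to 32.5, and Dlat from 2.58 through 2.71 to 3.56.

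The kinases encoded by Pdk1 and Pdk3 phosphorylate and inhibit the complex. Pdk1 stood in control libraries at 43.1 and 46.2 CPM at the 2-cell, 13.9 and 13.7 at the 4-cell and 9.36 and 7.91 at the 8-cell stage. Under MERVL-KD the levels were 47.7 and 45.7 at the 2-cell, 15.6 and 17.2 at the 4-cell and 11.0 and 8.00 CPM at the 8-cell stage. Pdk3 stood in control libraries at 54.2 and 48.1 CPM at the 2-cell, 9.02 and 7.12 at the 4-cell and 7.55 and 6.60 at the 8-cell stage. Both kinases were high in every 2-cell library and low in all later ones. The MERVL-KD levels of Pdk3 were 34.5 and 36.3 at the 2-cell, 8.05 and 5.20 at the 4-cell and 6.87 and 7.05 CPM at the 8-cell stage. The falls from the 2-cell to the 8-cell stage were 5.17-fold for Pdk1 (−2.37 ± 0.18, adjusted p = 1.40e-10) and 7.23-fold for Pdk3 (−2.85 ± 0.20, adjusted p = 8.07e-11), opposite to the rise of Pdha1. Pdk3 was lower in both MERVL-KD 2-cell libraries (−0.45 ± 0.12, adjusted p = 0.0189), a difference that fell short without Control 2-cell replicate 1 (−0.36). Per length, Pdk3 took 79.2 and 76.0% at the 2-cell, 66.3 and 61.3% at the 4-cell and 71.0 and 71.7% at the 8-cell stage of the pair in control embryos. Pcx, which encodes the pyruvate carboxylase that feeds oxaloacetate to the cycle, fell 2.87-fold from the 2-cell to the 8-cell stage (−1.52 ± 0.31, adjusted p = 0.000249).

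In the TCA cycle, Cs encodes citrate synthase, the entry step. In mean control RPKM it went from 35.4 through 12.4 to 15.4 and was called lower in the first step (−1.51 ± 0.11, adjusted p = 7.64e-11). The NAD-dependent isocitrate dehydrogenase has subunits encoded by Idh3a and Idh3b, and Idh2 encodes the NADP-dependent mitochondrial enzyme. Idh3b stood in control libraries at 5.36 and 6.94 CPM at the 2-cell, 44.5 and 44.9 at the 4-cell and 61.1 and 64.0 at the 8-cell stage. After knockdown it stood at 5.87 and 5.15 at the 2-cell, 46.8 and 41.7 at the 4-cell and 53.4 and 68.4 CPM at the 8-cell stage. Idh2 stood in control libraries at 0.765 and 1.27 CPM at the 2-cell, 16.3 and 18.4 at the 4-cell and 26.1 and 27.2 at the 8-cell stage. In MERVL-KD libraries it stood at 1.17 and 0.877 at the 2-cell, 14.1 and 14.5 at the 4-cell and 22.9 and 26.4 CPM at the 8-cell stage. Both were low in every 2-cell library and high in all later ones, with rises from the 2-cell to the 8-cell stage of 10.2-fold for Idh3b (3.34 ± 0.17, adjusted p = 2.13e-13) and 25.9-fold for Idh2 (4.69 ± 0.25, adjusted p = 5.24e-13). Idh3a fell 2.04-fold over the interval (−1.03 ± 0.23, adjusted p = 0.000737), a call lost without Control 2-cell replicate 1 (−0.94) or Control 8-cell replicate 1 (−0.69). Exons of Idh3b overlap those of Nop56 on the opposite strand, which had up to 13552 counts in a library while the lowest count of Idh3b over all libraries was 168, and the strand setting of the counting is not given in the sources used here.

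Ogdh, on chromosome 11 from 6291633 to 6356642 (plus strand, GRCm38), encodes the first subunit of oxoglutarate dehydrogenase. It stood in control libraries at 34.8 and 36.2 CPM at the 2-cell, 67.7 and 65.4 at the 4-cell and 73.5 and 78.2 at the 8-cell stage. Its MERVL-KD levels were 26.2 and 23.0 at the 2-cell, 29.3 and 26.5 at the 4-cell and 38.2 and 38.4 CPM at the 8-cell stage. Both MERVL-KD libraries lay below both controls at every stage, and the 2-cell and 4-cell MERVL-KD libraries were all between 23.0 and 29.3 CPM. From the 2-cell to the 4-cell stage Ogdh changed by 0.91 ± 0.12 (adjusted p = 1.83e-06) in control and by 0.18 ± 0.12 (adjusted p = 0.229) in MERVL-KD embryos. The differences were −0.44 ± 0.13 (adjusted p = 0.0348), −1.25 ± 0.12 (adjusted p = 8.53e-05) and −0.98 ± 0.11 (adjusted p = 0.000342) at the 3 stages, and the 4-cell one, 2.38-fold lower, was called with each library left out. The 8-cell value lay just short of 2-fold and passed it without Control 8-cell replicate 1 (−1.02). The 2-cell difference fell short with a replicate block, and without either control library (−0.48 and −0.44) or MERVL-KD 2-cell replicate 2 (−0.36). The interaction of the 4-cell against the 2-cell stage was −0.72 ± 0.17 (adjusted p = 0.0211). RefSeq lists 6 starts for Ogdh, and gene counts do not tell them apart. Dlst, which encodes the second subunit of the complex, was 16.7 and 15.2 CPM in control and 25.0 and 27.6 in MERVL-KD 4-cell libraries. Both MERVL-KD libraries were higher (0.72 ± 0.16, adjusted p = 0.0134), opposite to Ogdh, a difference that fell short without Control 4-cell replicate 2 (0.65).

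Succinyl-CoA synthetase pairs the subunit of Suclg1 with that of Suclg2 or of Sucla2, whose enzymes form GTP and ATP. Suclg1 stood in control libraries at 0.957 and 1.43 CPM at the 2-cell, 22.2 and 19.7 at the 4-cell and 29.4 and 30.6 at the 8-cell stage. The MERVL-KD libraries gave 0.713 and 1.05 at the 2-cell, 16.4 and 18.2 at the 4-cell and 22.5 and 26.7 CPM at the 8-cell stage. It rose 17.4-fold in the first control step (4.12 ± 0.24, adjusted p = 2.86e-12), with the 2-cell libraries of both treatments near 1 CPM and no overlap with later ones. Suclg2 stood in control libraries at 38.2 and 30.8 CPM at the 2-cell, 23.6 and 22.1 at the 4-cell and 25.7 and 27.5 at the 8-cell stage. MERVL-KD embryos had levels of 21.4 and 29.0 at the 2-cell, 18.0 and 11.3 at the 4-cell and 22.7 and 19.4 CPM at the 8-cell stage. Sucla2 stood in control libraries at 19.0 and 26.3 CPM at the 2-cell, 38.0 and 42.3 at the 4-cell and 45.2 and 44.3 at the 8-cell stage. The first fell and the second rose in the first control step, by less than 2-fold each (−0.59 ± 0.20, adjusted p = 0.0153 for Suclg2 and 0.82 ± 0.17, adjusted p = 0.000291 for Sucla2). Without Control 2-cell replicate 2 the rise of Sucla2 passed 2-fold (1.08), and without Control 2-cell replicate 1 (−0.45) or Control 4-cell replicate 2 (−0.56) the fall of Suclg2 missed the adjusted p. The MERVL-KD levels of Sucla2 were 18.1 and 19.3 at the 2-cell, 42.1 and 42.6 at the 4-cell and 39.1 and 56.8 CPM at the 8-cell stage. Per length, Sucla2 took 36.6 and 49.7% at the 2-cell, 65.1 and 69.0% at the 4-cell and 67.1 and 65.1% at the 8-cell stage of the pair in control embryos and led it from the 4-cell stage on.

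Fh1 encodes fumarase. It stood in control libraries at 9.69 and 10.0 CPM at the 2-cell, 7.12 and 7.47 at the 4-cell and 6.89 and 9.28 at the 8-cell stage. Under MERVL-KD the levels were 6.18 and 6.00 at the 2-cell, 10.2 and 10.2 at the 4-cell and 8.86 and 7.05 CPM at the 8-cell stage. MERVL-KD was lower than control at the 2-cell stage and higher at the 4-cell stage, without overlap at either, and the groups overlapped at the 8-cell stage. No single stage passed (adjusted p = 0.0548, 0.182 and 0.982), and the interaction of the 4-cell against the 2-cell stage was 1.18 ± 0.32 (adjusted p = 0.0403). It fell short of the threshold with any of the 8 libraries left out, and with a replicate block. Malate dehydrogenase, the last step, has a cytosolic form encoded by Mdh1 and a mitochondrial form encoded by Mdh2. Mdh1 stood in control libraries at 8.80 and 8.64 CPM at the 2-cell, 2.16 and 2.15 at the 4-cell and 1.23 and 1.00 at the 8-cell stage. After knockdown it stood at 7.04 and 6.82 at the 2-cell, 1.98 and 1.75 at the 4-cell and 1.79 and 2.46 CPM at the 8-cell stage. It fell 7.78-fold from the 2-cell to the 8-cell stage in control embryos (−2.96 ± 0.33, adjusted p = 1.04e-07), with every 2-cell library above all later ones. Wdpcp on the opposite strand, with exons that overlap those of Mdh1, had at most 64 counts in a library, and Mdh1 at least 30. Mdh2 rose 2.73-fold over the same interval (1.45 ± 0.11, adjusted p = 1.02e-10). In mean control RPKM, Mdh2 went from 22.0 to 60.3 and Mdh1 from 3.28 to 0.420.

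**Figure D5:**
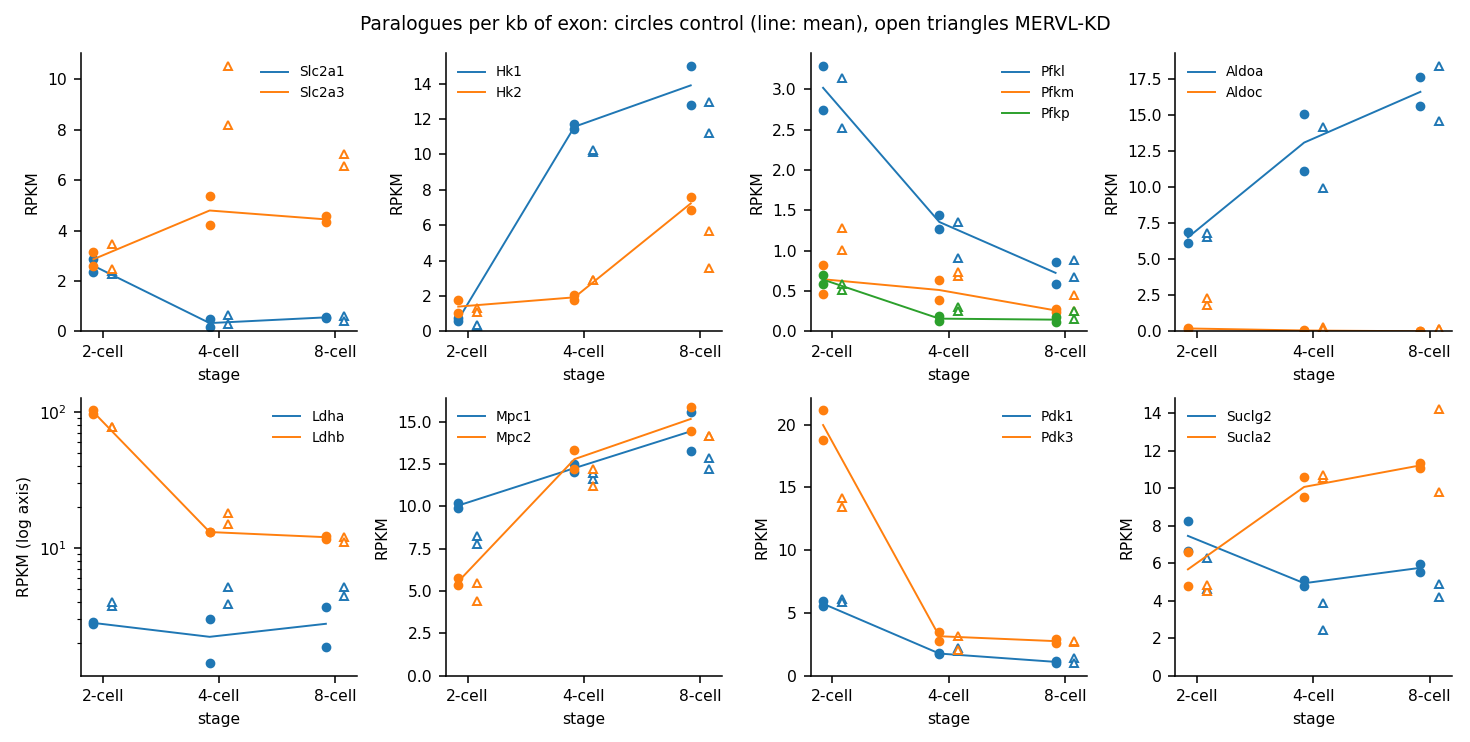
Level per length, in RPKM, of the members of 8 paralogue sets at the 3 stages in each library, with circles and a line through the means for control, open triangles for MERVL-KD, and a log axis for the Ldh panel. On this scale Hk1 and Hk2 change order between the 2-cell and the 4-cell stage. Sucla2 lies above Suclg2 from the 4-cell stage on. At the 2-cell stage these 2 were near equal in Control replicate 2 and MERVL-KD replicate 1, where Suclg2 took 50.3 and 50.4% of the pair.

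A further 87 genes of the same pathways, listed by name, were read in the same way, and 85 were tested across stages. From the 2-cell to the 8-cell stage of control embryos 27 were called higher and 25 lower, which is 31.8% and 29.4% of them against 21.5% and 26.2% of all names. The share called lower was near that of all names. By list these were 10 and 9 of 31 other glycolysis and lactate genes, 4 and 6 of 22 other pyruvate dehydrogenase and TCA genes, 3 and 2 of 10 redox shuttle genes, 4 and 2 of 8 pentose phosphate genes, and 6 and 6 of 14 regulators, lists too short to be read against those shares. Of those called, the largest fitted rises were those of Gapdhs, Fbp2, Eno2 and Tkt and the largest fitted falls those of Pgk2 and G6pdx. For Gapdhs and Pgk2 a group held 0 counts, so only lower bounds are given and their rank is not established. Gapdhs, a paralogue of Gapdh known from sperm, held 0 counts in both control 2-cell libraries and 20 and 16 in the control 8-cell libraries, which is at least 13.9-fold higher against a floor of 3 counts over the group and 6.92-fold with halved counts and the same floor. Pgk2, the paralogue of Pgk1, held 20 and 26 counts in control 2-cell libraries and 0 in both 8-cell ones, at least 13.3-fold lower on that floor and 6.64-fold with halved counts. Fbp2, a fructose bisphosphatase, stood at 1.15 and 1.10 CPM in control 2-cell and 54.2 and 46.8 in control 8-cell libraries (5.49 ± 0.29, adjusted p = 8.52e-12). Tkt, the transketolase of the pentose phosphate pathway, rose from 7.68 and 7.18 to 209 and 181 CPM (4.71 ± 0.14, adjusted p = 1.34e-16), and the enolase gene Eno2 from 0.0638 and 0.248 to 3.70 and 5.03 (4.74 ± 0.58, adjusted p = 3.55e-07). The log2 change of Eno2 was 4.10 without Control 2-cell replicate 1 and 6.02 without Control 2-cell replicate 2. G6pdx, which opens the pentose phosphate pathway, fell from 217 and 177 to 9.11 and 11.9 CPM (−4.23 ± 0.21, adjusted p = 7.64e-11). Among regulators, Hif1a fell (−2.30 ± 0.15, adjusted p = 1.47e-11) while Epas1 (3.95 ± 0.18, adjusted p = 1.08e-13) and Tead4 (4.39 ± 0.16, adjusted p = 1.45e-14) rose.

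In the knockdown comparison of the 2-cell stage 5 of the 83 tested pathway genes were higher, among them Mycn, Pgam2, Pfkfb4 and Gpd1, and 1 was lower (Dhtkd1), or 6.02% and 1.20% against 4.26% and 2.22% of all names. The glycolysis regulator Mycn stood at 1.24 and 1.13 CPM in control and 9.84 and 8.37 in MERVL-KD 2-cell libraries (3.02 ± 0.27, adjusted p = 1.71e-06). Both MERVL-KD 2-cell libraries lay above both controls. Gpd1, of the glycerol phosphate shuttle, lost its call without MERVL-KD 2-cell replicate 1 (0.81 in place of 1.16). Without Control 2-cell replicate 1, Hkdc1 and Pdha2 were also called higher (adjusted p = 0.00726 and 0.00242), and without Control 2-cell replicate 2, Pfkfb1 was called lower (−1.10). Dhtkd1, which encodes an oxoglutarate dehydrogenase-like enzyme, was lower (−1.73 ± 0.15, adjusted p = 2.68e-06). At the 4-cell stage 3 of 77 were higher (Pfkfb4, Mycn and Pgam2) and 1 was lower (Sdhb, a subunit of succinate dehydrogenase), or 3.90% and 1.30% against 2.58% and 1.87%. These counts and those of the other stages lie near the shares of all names or are too small to be read as differing from them. Of the 4-cell calls, Pfkfb4 (2.50 ± 0.55, adjusted p = 0.0134) kept its call with each library left out. Pgam2 (1.46) lost it without Control 4-cell replicate 1 (1.22) or MERVL-KD 4-cell replicate 1 (0.96). Without MERVL-KD 4-cell replicate 2 the calls of Mycn (1.04 in place of 1.50) and Sdhb (−0.86 in place of −1.21) were lost. In fits without 1 library, calls were gained for Slc16a3 (2.47) and Idh1 (−1.05) without Control 4-cell replicate 2, for Idh1 (−1.35) without MERVL-KD 4-cell replicate 1 and for Txnip (1.04) without MERVL-KD 4-cell replicate 2. At the 8-cell stage, without the fold threshold, 1 of 76 was higher (Got1) and 5 were lower (Sdhb, Dhtkd1, Tkt, Tigar and Esrrb), or 1.32% and 6.58% against 1.62% and 3.51%. Of these 6, all but Dhtkd1 and Got1 fell short without Control 8-cell replicate 1, and all but Tkt without Control 8-cell replicate 2, with Sdhb at −0.79 and −0.81 in place of −0.80. Without MERVL-KD 8-cell replicate 2 the counts became 3 higher and 14 lower. The added lower ones were Mycn (−1.97), Slc2a8 (−0.82), Idh1 (−0.65), Idh3g (−0.53), Pdp2 (−0.45), Epas1 (−0.45), Taldo1 (−0.36), Gpd1l (−0.32) and Gpd2 (−0.30), and the added higher ones Ogdhl (2.00) and Mlxipl (0.88). Slc2a4 passed as lower without Control 8-cell replicate 2 (−1.61) or MERVL-KD 8-cell replicate 1 (−1.88). Of these, Mycn, Ogdhl and Slc2a4 also passed 2-fold, and with all libraries 0 did.

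The stage of each library was read from marker lists. The 12 maternal transcripts summed to 1484 and 1392 CPM in control and 924 and 1037 in MERVL-KD 2-cell libraries, with Bmp15 the most abundant. They summed to 199.8 and 204.5 against 212 and 221 CPM at the 4-cell stage, and to 175 and 189 against 180.1 and 162 at the 8-cell stage. The sum was thus several times higher in every 2-cell library than in later ones. From the 2-cell to the 4-cell stage of control embryos 10 of the 12 were called lower, against 23.7% of all names. In MERVL-KD embryos 7 were, against 22.4%. Zar1 stood at 26.38 and 28.25 CPM in MERVL-KD 2-cell and 27.57 and 35.06 in MERVL-KD 4-cell libraries. Without Control 2-cell replicate 2, Mos (−0.91) and Figla (−1.615) lost the control call. The part of maternal RNA in the fall of members over the same interval was not tested. Without the fold threshold 3 of the 12 were lower in MERVL-KD 2-cell libraries, against 7.23% of all names. They were Bmp15 (−0.81 ± 0.11, adjusted p = 0.000173), Nlrp5 (−0.35 ± 0.10, adjusted p = 0.0239) and Oosp1 (−0.32 ± 0.09, adjusted p = 0.0187). Nlrp5 fell short without Control 2-cell replicate 1 (−0.25) and Oosp1 without Control 2-cell replicate 2 (−0.28) or MERVL-KD 2-cell replicate 1 (−0.27). Without MERVL-KD 2-cell replicate 2, Ooep (−0.60) and Npm2 (−0.38) also passed, as they did without Control 2-cell replicate 2. The 10 markers of the 2-cell stage summed to 1829 and 1872 CPM in control and 1014 and 1168 in MERVL-KD 2-cell libraries. Sp110 took most of this sum and stayed high later, with sums of 1457 and 1552 against 759 and 822 CPM at the 4-cell and 1759 and 1860.0 against 1046 and 1221 at the 8-cell stage. Of the 9 with counts, 7 were called lower from the control 2-cell to the 4-cell stage, and Gm6763 had 0 counts in every library. In MERVL-KD 2-cell libraries 6 of these 9 were lower without the fold threshold, against 7.23% of all names: Zscan4c (−1.47 ± 0.16, adjusted p = 1.93e-05), which passed 2-fold, Zscan4f, Tcstv3, Zfp352, Sp110 and Usp17lc. Zscan4f passed 2-fold without Control 2-cell replicate 2 (−1.14) or MERVL-KD 2-cell replicate 1 (−1.04), and Tcstv3 without MERVL-KD 2-cell replicate 2 (−1.08). These and the maternal differences stand beside the lower Hk1, Ldhb, Pdk3 and Ogdh of MERVL-KD 2-cell embryos, and their part in them was not tested. Zfp352 (−1.04 ± 0.27, adjusted p = 0.0317) and Sp110 (just past 2-fold, adjusted p = 2.46e-05) were called lower at the 4-cell stage. Zfp352 fell short without the second control (−0.88) or MERVL-KD library of that stage (−0.72), and Sp110 slipped under 2-fold without Control 4-cell replicate 2 (−0.96) or MERVL-KD 4-cell replicate 1 (−0.94). Zscan4c was called higher there without Control 4-cell replicate 1 (2.84) or MERVL-KD 4-cell replicate 2 (3.22). The 10 markers of the 8-cell stage and morula summed to 217 and 205 CPM in control and 179 and 192 in MERVL-KD 2-cell libraries. Their sums were 301 and 306 against 287 and 318 CPM at the 4-cell stage, and 426 and 396 against 301 and 339 at the 8-cell stage, with Tfap2c the most abundant. Not all of this list rose with stage. From the 2-cell to the 8-cell stage of control embryos 6 of the 10 were called higher and 3 lower, Dab2 from 117 and 100.5 to 41.8 and 36.1 CPM, Atp1b1 from 22.4 and 16.3 to 6.06 and 7.44 and Dppa1, so the sums do not order the libraries by stage alone. They also hold genes that differed in opposite directions between treatments. Of the 9 tested at the 4-cell stage, 3 were called higher in MERVL-KD, against 2.58% of all names. They were Krt8 (24.6 and 28.1 CPM against 4.20 and 5.52 in control), Atp1b1 (18.9 and 16.8 against 5.36 and 4.52, nearer to its control 2-cell level) and Krt18 (1.41 ± 0.28, adjusted p = 0.00725), each in every fit without 1 library. Dab2 was lower there, short of 2-fold (−0.95 ± 0.24, adjusted p = 0.0256), and passed 2-fold without Control 4-cell replicate 2 (−1.14) or MERVL-KD 4-cell replicate 2 (−1.29) and missed the adjusted p without either replicate 1 (−0.74 and −0.68). At the 8-cell stage Atp1b1 was higher (13.6 and 15.3 CPM against 6.06 and 7.44 in control), a call lost without Control 8-cell replicate 1 (0.97). Dab2 (−0.94 ± 0.16, adjusted p = 0.00704) and Tdgf1 (−0.76 ± 0.15, adjusted p = 0.0179) were lower, short of 2-fold. Without MERVL-KD 8-cell replicate 2 both passed it (−1.15 and −1.04), as Dab2 did without Control 8-cell replicate 2 (−1.04). Of the 9 markers of the 2-cell stage tested in 8-cell embryos 1 was lower without the fold threshold, against 3.51% of all names. Zfp352 was also called higher there without MERVL-KD 8-cell replicate 1 (2.04). Without MERVL-KD 8-cell replicate 2 the maternal Ooep was higher (1.43) and Tdpoz4 lower (−0.67). These differences stand beside the knockdown differences of the members at the 4-cell and 8-cell stages, and their part in them was not tested. Cumulus and granulosa cell markers, 12 genes, summed to between 22.1 and 31.9 CPM, most of it Amhr2, with Ptx3 at 0 counts in every control library and Fshr at no more than 4 counts in any. From the control 2-cell to the 8-cell stage Amhr2 rose from 15.3 and 19.1 to 23.9 and 24.5 CPM, short of 2-fold. That rise passed the adjusted p, but not without Control 2-cell replicate 1 (0.32). Of the 8 markers tested 4 were called lower over this interval, against 26.2% of all names. They were Runx2 (8.42 and 7.57 to 1.96 and 1.74 CPM), Ptgs2 (1.21 and 1.65 to 0 and 0.168), Has2 (1.02 and 0.661 to 0 and 0.0670) and Tnfaip6 (1.44 and 0.881 to 0 and 0.201). Has2 lost its call without Control 2-cell replicate 1 or Control 8-cell replicate 1, and Tnfaip6 without these or Control 2-cell replicate 2. In MERVL-KD embryos 5 of the 8 were called lower and 1 higher over the interval, against 25.8% and 21.9%. These falls stand beside those of the members over the same interval, and their part in that fall was not tested. The 6 sperm markers summed to between 0.290 and 2.04 CPM, with Prm2 the most abundant in most libraries. Prm2, the 1 sperm marker tested, was called lower from the control 2-cell to the 4-cell stage (−3.05). That call was lost without Control 2-cell replicate 1 (−2.97) or Control 4-cell replicate 2 (−2.17). From the control 2-cell to the 8-cell stage Prm2 was not called (−1.47). The part of this fall in that of the members was not tested.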

How the data were processed

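The authors aligned total RNA reads with STAR 2.5.3a, kept unique alignments and made the deposited raw counts with featureCounts over GENCODE genes and RepeatMasker families (GRCm38). Both mates of a pair appear to be counted, since most counts are even, and the counts carry no molecular identifiers. Near-identical copies elsewhere in the genome leave the counts of Gapdh, Ldha, Eno1, Tpi1, Pgk1, Pgam1, Aldoa and Mdh1 uncertain, and the strand setting of the counting is not given in the sources used here. The labels give the strain as BDF2 and the series text as B6D2F1. Libraries of open chromatin in the series were not analysed.

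All names were fitted together in edgeR 4.0.16 (R 4.3.3) with filterByExpr, TMM factors and the robust quasi-likelihood test. Knockdown comparisons used the 4 libraries of a stage, and stage steps and interactions used 1 fit of 6 groups over 12 libraries. Replicate numbers were not treated as pairs. A p-value here measures only the spread between these libraries. DESeq2 1.42.0, its size factors, library size alone, filters of at least 1 count over the libraries or 10 in every library, genes only, halved counts, a replicate block, other sets of libraries in the fit and each library left out were tried as alternatives.

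The members and the lists were chosen with earlier results of these data known. Values in every library are given for members called in a knockdown comparison or an interaction, for the 5 largest rises and 5 largest falls from control 2-cell to 8-cell embryos, and for paralogue sets. Of the other pathway genes, the called ones with the largest fitted change are named. The values of Gapdh, Slc16a1, Dlst and the regulators Hif1a, Epas1 and Tead4, and of the single marker genes, were added after they were seen. Promoters are from RefSeq (GRCm38.p6).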

Additional observations from a re-analysis of the deposited data

Results flagged for a closer look

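The effect of the knockdown, MERVL-KD against control, was compared between stages with an interaction test in edgeR, and the values below are differences of log2 fold changes. For Pkm the effect at the 4-cell stage was higher than that at the 2-cell stage by 1.12 (adjusted p = 0.000438), and at the 8-cell stage by 1.37 (adjusted p = 6.04e-05). For Hk1 these differences were 0.79 (adjusted p = 0.0331) and 0.77 (adjusted p = 0.0376). Between the 4-cell and the 2-cell stage the effect also differed for Slc2a3 by 0.91 (adjusted p = 0.0383), for Ldhb by 0.71 (adjusted p = 0.0186) and for Fh1 by 1.18 (adjusted p = 0.0403). For Ogdh it was lower at the 4-cell stage, at −0.72 (adjusted p = 0.0211). Pkm kept both differences in every fit without 1 library, and each of the others fell short in 4 to 8 of such fits.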

How the results depend on the processing

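Counts of members called moved by more than 1.5 times under these alternatives, and the cause was not tested. With library size alone, 2 members were called at the 2-cell stage in the knockdown comparison (1 with TMM) and 3 from the control 4-cell to the 8-cell stage (1 with TMM). That scale also moved the median of all names, from 0.02 to 0.31 in the 2-cell knockdown comparison, from 0.01 to 0.14 in the 8-cell one, from −0.02 to 0.14 and from −0.03 to −0.23 in the control steps to the 4-cell and to the 8-cell stage, and from 0.04 to −0.27 and to −0.20 in the interactions of the 4-cell and the 8-cell against the 2-cell stage. Ldhb in 2-cell embryos, at −0.28 with TMM, was then at 0.003, or −0.31 from that median. Without the fold threshold, 5 members were called in the knockdown comparison of each stage (1, 2 and 1 with it, in stage order) and 6 from the control 4-cell to the 8-cell stage. At the 4-cell stage DESeq2, a filter of at least 1 count over the libraries and a filter of at least 10 counts in every library each called 4, with Tpi1 and Ldha added. In the interaction of the 8-cell against the 4-cell stage DESeq2 and the filter of at least 1 count each called 1, Hk2, in place of 0. In that of the 8-cell against the 2-cell stage halved counts called 1 in place of 2.

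Without 1 library the counts ranged from 1 to 3 at the 2-cell, 1 to 6 at the 4-cell and 1 to 3 at the 8-cell stage in the knockdown comparisons, and from 1 to 2 from the control 4-cell to the 8-cell stage. The interactions ranged from 1 to 5 for the 4-cell against the 2-cell stage (6 with all libraries), 0 to 1 for the 8-cell against the 4-cell stage and 1 to 2 for the 8-cell against the 2-cell stage. In such fits the lone library of a group is assumed to vary like the others. The control steps from the 2-cell stage kept counts of 23 to 24 and 26 to 28, but not all genes: calls of Aldoa, Pgam1, Pfkm and Idh3a were lost and those of Pgam1, Sucla2 and Aldoc gained in 1 or more fits. Lower calls to the 8-cell stage were 14 to 15 in place of 16, and the members' median in the first step ran from −0.459 to 0.008. Without the fold threshold, fits without 1 library called 1 to 6, 5 to 7 and 3 to 9 members in the knockdown comparisons, in stage order, and 1 to 2 from the control 4-cell to the 8-cell stage. Over genes that had passed with the main settings, 394 of 465 values under an alternative kept their direction and passed, 70 fell short and 1, that of Ldhb, changed sign. These values cannot show a gene that newly passes, which only the counts above can. Of 126 medians, 108 moved by less than the replicate spread of 0.0897.

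With a replicate block, Hk1, Ldhb and Ogdh at the 2-cell stage and Fh1 in its interaction fell short of an adjusted p under 0.05. The deviations of control and MERVL-KD replicate 1 from their group means correlated at −0.0101, −0.00167 and 0.00343 at the 3 stages, over 24850 names. With 2 libraries per group the deviation of replicate 2 mirrors that of replicate 1, so it adds no independent pair. These values cannot settle whether the replicates were paired. Replicate spread had a chi-square of 14.7 to 25.8 for each degree of freedom when set against counting error alone. Separate pools of embryos would exceed counting error in any case, and counting both mates would raise the value. No conclusion was drawn from it. Exons of 12 members overlap those of another gene, 11 on the opposite strand and 2 on the same.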
